A study of Mus musculus with 6 samples.

Results

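In primary cardiac fibroblasts of the mouse, the S set of CUT&Tag libraries held 4271 regions with a normalized read density of at least 5 in every library. They were chosen by those densities, out of 26926 regions that the 2 S set tables shared and out of 456310 regions in the 4 tables of the series. In CUT&Tag an antibody tethers a transposase to its target, and the cut fragments are sequenced. The libraries came from heart tissue and numbered 6, with 3 in the S set and 3 in a T set. The treatments, with 1 library each in a set, were NC, TGF-b alone and TGF-b together with an siRNA, which the labels give as SiSRF for the S set and SiTAZ for the T set. The study's text speaks of siRNA against Piezo2 in these experiments, so the target is not stated further. The labels name no antibody. The study profiled SRF and TAZ, and S is taken to be SRF and T to be TAZ by inference. The design text of the series adds a Tet3 knockout by a virus carrying Cre, and no sample label says which libraries, if any, carry it. The age and sex of the donor animals and any pooling are not given in the labels. With 1 library per treatment no difference could be set against replicate spread, so every fold is a description of these libraries, and no interval covers the spread between replicates. Intervals of a single region's ratio cover counting error only, and those of shares and medians are taken over regions, which are not replicates.

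SRF (serum response factor) is a transcription factor that binds a DNA element called the CArG box and drives genes of the actin cytoskeleton and immediate early genes. Its coactivators of the myocardin and MRTF family respond to actin dynamics, and its partners of the TCF family respond to growth factor signalling. TGF-b turns cardiac fibroblasts into matrix-producing myofibroblasts, in which cytoskeletal SRF targets are well known. A region that is dense in every library passed a minimum in each and may still differ between treatments, and it can be a bound promoter or a stretch of the genome that collects reads in any library.

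Of the regions dense in all 3 libraries, 1284 lay in a promoter within 1 kb of a transcription start site (TSS) by the authors' annotation, and 988 of the 1222 genes concerned on the chromosomes searched matched a RefSeq promoter window (build GRCm38.p6) by symbol or older symbol. A CArG box was found in 12 of these 988 windows, which is 1.21% (Wilson 95% interval 0.696% to 2.11%), beside 1.57% of all 27025 windows. The windows run from 250 bases before the TSS to 50 after it. The 250 bases before the TSS are printed here, 5′ to 3′ on the strand of the gene, for the 4 such genes with the densest promoter members and a box in that stretch, with the box in capitals. They are shown because the box is the element that SRF is known to bind. A match is a run of letters and not a measured site.
Hdgfl2: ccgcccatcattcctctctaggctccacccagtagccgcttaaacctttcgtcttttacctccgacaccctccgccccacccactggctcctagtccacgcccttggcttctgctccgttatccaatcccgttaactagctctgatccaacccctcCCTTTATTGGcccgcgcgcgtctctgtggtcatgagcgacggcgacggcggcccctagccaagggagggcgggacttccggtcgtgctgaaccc
Blvrb: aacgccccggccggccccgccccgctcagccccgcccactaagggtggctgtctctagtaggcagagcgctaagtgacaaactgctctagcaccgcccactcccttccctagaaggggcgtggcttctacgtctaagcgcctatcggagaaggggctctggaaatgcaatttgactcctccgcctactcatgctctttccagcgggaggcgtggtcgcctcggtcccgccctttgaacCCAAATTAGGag
Ccdc9: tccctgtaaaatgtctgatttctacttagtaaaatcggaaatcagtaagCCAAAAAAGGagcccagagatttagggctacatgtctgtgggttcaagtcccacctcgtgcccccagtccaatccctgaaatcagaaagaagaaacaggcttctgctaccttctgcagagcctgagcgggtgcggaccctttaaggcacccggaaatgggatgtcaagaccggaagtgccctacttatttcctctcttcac
Mknk2: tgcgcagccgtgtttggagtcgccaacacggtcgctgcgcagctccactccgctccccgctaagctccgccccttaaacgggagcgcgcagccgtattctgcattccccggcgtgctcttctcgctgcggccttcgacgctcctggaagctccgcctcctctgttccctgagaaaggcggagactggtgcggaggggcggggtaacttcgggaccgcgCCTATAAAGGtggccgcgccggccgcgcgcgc

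The Hdgfl2 stretch is chr17:56079381-56079630 on the plus strand, with the first base of its box at position -94 from the TSS. The Blvrb stretch is chr7:27447728-27447977 on the plus strand, with the box at -12. The Ccdc9 stretch is chr7:16286796-16287045 on the minus strand, with the box at -201. The Mknk2 stretch is chr10:80676294-80676543 on the minus strand, with the box at -32. Blvrb encodes biliverdin reductase B, and Mknk2 encodes a kinase that phosphorylates the cap-binding factor eIF4E. In the order NC, TGF-b and siRNA, the S set region at the Hdgfl2 promoter held 23, 58 and 84 reads. The one at Blvrb held 28, 43 and 42 reads. The Mknk2 promoter held 10, 36 and 20 reads, and that of Ccdc9 19, 51 and 35. Reads are not scaled between libraries, and NC had the fewest at all 4 promoters. In normalized density the ratio of TGF-b to NC, as log2, was 0.77 at Hdgfl2 (counting interval 0.12 to 1.5), 0.07 at Blvrb (-0.59 to 0.77), 0.85 at Ccdc9 (0.14 to 1.64) and 1.2 at Mknk2 (0.31 to 2.29).

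For comparison, the stretches of the 2 matched genes with the densest promoter members and no box are printed with no capitals. They are chr11:109611390-109611639 on the minus strand for Wipi1, which encodes a WD-repeat protein of autophagosome formation, and chr2:33131437-33131686 on the minus strand for Garnl3.
Wipi1: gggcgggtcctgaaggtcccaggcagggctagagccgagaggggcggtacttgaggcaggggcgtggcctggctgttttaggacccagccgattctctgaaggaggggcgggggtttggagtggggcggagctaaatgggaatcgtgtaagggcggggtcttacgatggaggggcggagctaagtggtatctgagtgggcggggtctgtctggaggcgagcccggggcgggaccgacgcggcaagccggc
Garnl3: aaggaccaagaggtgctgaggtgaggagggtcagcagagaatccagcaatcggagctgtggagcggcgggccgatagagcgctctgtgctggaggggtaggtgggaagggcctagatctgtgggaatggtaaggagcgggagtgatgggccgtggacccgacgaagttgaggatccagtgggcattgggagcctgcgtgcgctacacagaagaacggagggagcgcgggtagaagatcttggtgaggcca

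The Wipi1 stretch has a GC content of 67.2% and that of Garnl3 61.2%. Across the 988 matched windows the median GC content was 64.5%, beside 52.7% over all windows, and the median ratio of observed to expected CpG was 0.787, beside 0.389. A ratio of at least 0.6 was found in 81.6% of matched windows (79.0% to 83.9%) and in 36.5% of all windows. Other motifs were searched on both strands. The letters GGGCGG, which the SP family of factors binds, were in 78.1% of matched windows and 35.9% of all. CCAAT, bound by NF-Y, was in 53.2% against 37.9%, and CCGGAA, the core of ETS family sites, in 25.9% against 15.2%. CATTCC, the letters of a TEAD site, was in 10.4% against 14.6%, TGANTCA, an AP-1 site, in 5.36% against 7.93%, and TGACGTCA, a CRE, in 2.43% against 1.88%. A CArG box can hold the letters CCAAT, as the box of Hdgfl2 does on the other strand, and no other of these motifs contains another. The matched windows were thus rich in CpG and in the letters of the SP, NF-Y and ETS motifs, and no such excess was seen for the CArG box or the TEAD and AP-1 letters. These shares were not balanced for base composition, in which the groups of windows differ, so they cannot tell which factors bind there.

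The annotation of the members differed from that of the other joined regions in the share of promoters. Promoters within 1 kb made up 30.1% of the members (28.7% to 31.5%), beside 4.56% of the 22655 joined regions that were not dense in all libraries (4.30% to 4.84%) and 5.81% of all 52712 regions of the NC and TGF-b table. The 5′ UTR class was 7.12% of members and 1.27% of the other joined regions. Introns gave 22.7% of members against 36.4%, and regions to which no gene was assigned 31.8% against 50.7%. Exons gave 239 members, promoters from 1 to 2 kb gave 48, 3′ UTRs 35 and downstream regions 30. Read the other way, 55.4% of the 2317 joined promoter regions within 1 kb were members, beside 10.5% of joined introns and 10.6% of joined regions with no gene. The promoter members sat close to the TSS, at a median distance of -101 bp (quartiles -174 and -49).

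**Figure D1:**
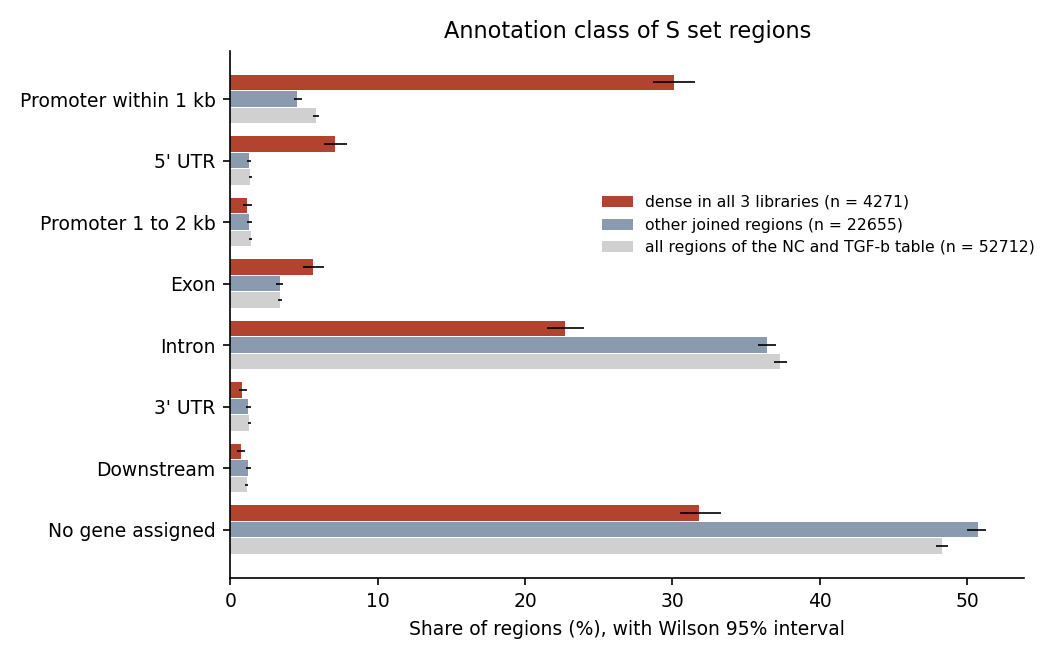
Share of regions in each annotation class (horizontal axis, percent, with Wilson 95% intervals) for the 4271 S set regions dense in all 3 libraries, the 22655 other joined regions and all 52712 regions of the NC and TGF-b table. Promoters within 1 kb reach 30.1% of the dense regions and 4.56% of the other joined regions.

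Depth per region was low in most members. The reads behind the densities, recovered by undoing the authors' normalization, had a median of 13 in NC (8 to 24275), 23 in TGF-b (12 to 20055) and 17 with siRNA (9 to 19623). The median densities were 8.48, 9.90 and 9.20 reads per kb in the NC, TGF-b and siRNA columns, where the first pair comes from one table and the siRNA value from the other. The TGF-b library itself had a median of 11.8 in the second table, so these medians do not rank the libraries. Members were also wider than other joined regions, with a median of 211 bp against 179 bp.

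The make-up of the members changed with density. Among the 1192 members whose lowest density was 5 to 6, promoters within 1 kb or 5′ UTRs were 20.6%, and the share was 38.7% at 6 to 8, 53.1% at 8 to 12 and 58.6% at 12 to 20. At 20 or more it was 13.9% (9.50% to 19.8%), with 24 of 173 regions, and regions with no gene assigned were 67.6% (60.3% to 74.2%). The most dense regions were therefore of another kind than the moderately dense ones in annotation.

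**Figure D2:**
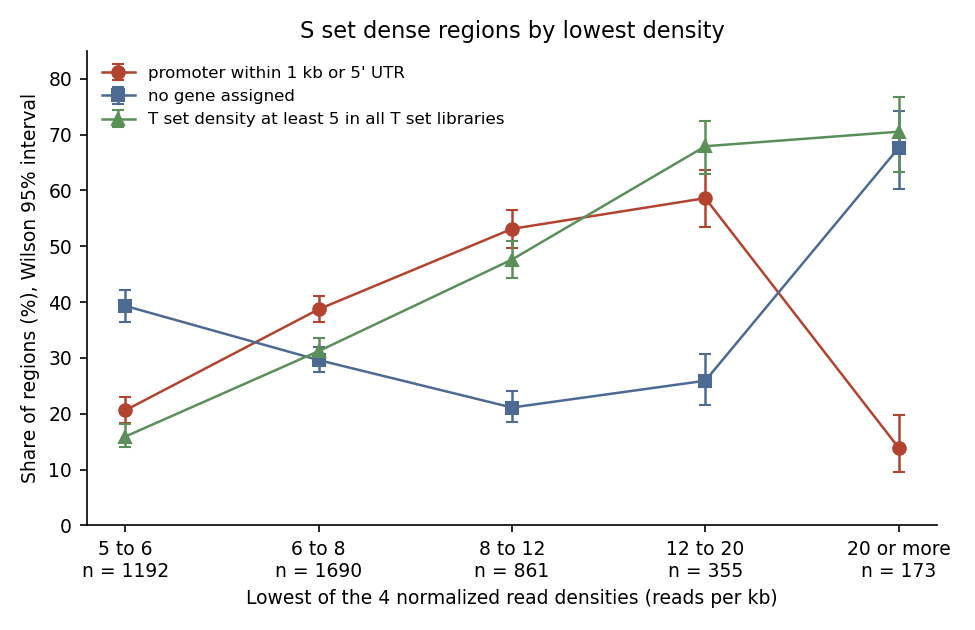
Share of the S set dense regions (vertical axis, percent, with Wilson 95% intervals) that are promoters within 1 kb or 5′ UTRs, have no gene assigned, or have a T set density of at least 5 in all T set libraries, by the lowest of the 4 S set densities in reads per kb (horizontal axis). The promoter share goes from 20.6% to 58.6% over the first 4 steps and is 13.9% at 20 or more, where 67.6% have no gene.

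The peak caller of the authors did not mark every member in every library. Of the members, 653 were called in all 3 libraries, 781 in TGF-b and siRNA, 495 in NC and siRNA, 194 in NC and TGF-b, and 2148, or 50.3%, in TGF-b only. The last group passed the density minimum in NC and with siRNA without a peak there. Nearly every region called in all 3 libraries was a member, 653 of 687 (95.1%), against 2148 of the 23383 joined regions called in TGF-b only (9.19%). Promoters or 5′ UTRs were 71.7% of members called in TGF-b and siRNA, 59.9% of those called in all 3 and 387 of the 2148 called in TGF-b only.

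The highest signal lay in stretches with no gene. The region chr2:98496914-98497658 (build GRCm39, as for every region coordinate that follows) held 24275, 20055 and 19623 reads in the NC, TGF-b and siRNA libraries. Its neighbour chr2:98496584-98496662 held 23574, 19720 and 19068 reads, and the 2 kb counting windows of both overlap. The third in order, chr9:3000106-3001515, held 4317, 2624 and 3609 reads. These regions stand far above the median member in every library. A group of 27 members had 500 reads or more in a library, 21 of them with no gene and none in a promoter or 5′ UTR, and they held 50.2% of all reads at members in NC, 34.2% in TGF-b and 39.1% with siRNA. Of the 27, 24 also had a T set density of at least 5 in every T set library.

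Clusters of members marked some of these places. Members within 2 kb of each other formed 4072 loci, of which 3910 held a single member and the largest, on chromosome 9, held 11. Unplaced scaffolds gave 54 members out of 60 joined regions (90.0%), with 28 of 29 on the scaffold JH584304.1, and autosomes gave 4191 of 26313 (15.9%). The X chromosome gave 23 of 544 joined regions (4.23%, 2.83% to 6.26%) and the Y chromosome gave 3. Among promoters within 1 kb, 4 of 23 joined regions on X were members (17.4%, 6.98% to 37.1%) against 55.7% on autosomes. The number of X chromosomes per cell was not known here, and its part in these shares was not tested.

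Members with high signal inside genes were mostly intronic. The intron of 2700054A10Rik at chr17:13770924-13773461 held 1436, 1111 and 1628 reads in NC, TGF-b and siRNA. The Chl1 intron, in the gene of a neural cell adhesion molecule, held 1080, 644 and 892 reads. The intron of Smo, the signal transducer of the Hedgehog pathway, held 649, 570 and 664 reads. These values are larger in reads than those of any promoter member, for which the highest counts were 145, 152 and 199. An unnamed gene on the scaffold JH584304.1, ENSMUSG00000095041, had that promoter member. Others of high signal were introns of Sfi1 (510, 750 and 388 reads), Gm33838 (601, 379 and 491), Gm12735 (293, 409 and 277), Actr3b (243, 326 and 246), Ugt1a1 (92, 135 and 99) and Ppp2r3d (65, 147 and 137). Reads of Sfi1 and Gm12735 come from neighbouring regions on chromosome 11. Whether repeated copies of a sequence share reads was not tested.

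Among promoter and 5′ UTR members with a gene symbol, Wipi1 at chr11:109502184-109502763 held 49 NC reads, 88 TGF-b reads and 103 siRNA reads. Garnl3 at chr2:33020669-33021395 held 50, 82 and 100 reads. Dnpep, which encodes aspartyl aminopeptidase, held 38, 97 and 86 reads at chr1:75294033-75294651. At all 3 promoters NC had the fewest reads, and by density the ratio of TGF-b to NC was 0.33 in log2 at Wipi1 (-0.16 to 0.84), 0.20 at Garnl3 (-0.30 to 0.71) and 0.82 at Dnpep (0.31 to 1.38). Only the interval of Dnpep lies above 0. Others of high density were AKAP17A (52, 96 and 82 reads), Tspan17, a tetraspanin (43, 88 and 74), Gm6410 (34, 86 and 130), Tmem267 (33, 109 and 50) and Ripk2, a kinase of NOD receptor signalling (25, 99 and 75). Ripk2 had a log2 ratio of TGF-b to NC of 1.43 (0.84 to 2.10) and Tmem267 of 1.19 (0.66 to 1.77).

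**Figure D3:**
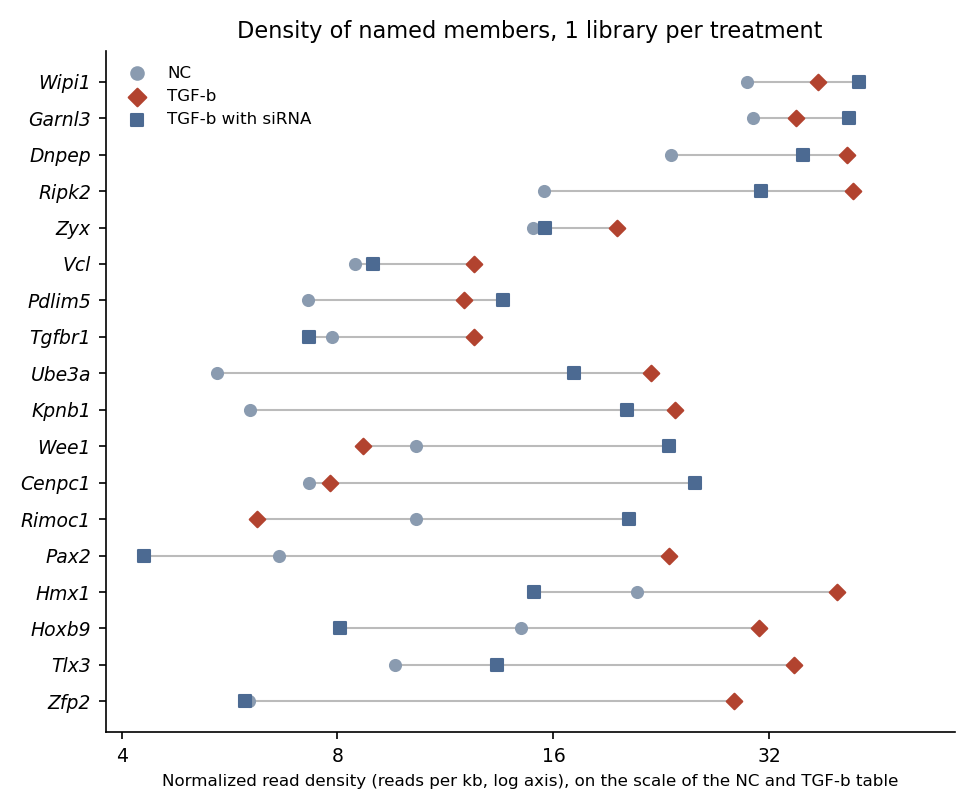
Normalized read density (horizontal axis, reads per kb, log axis) of 18 named members in the NC, TGF-b and siRNA libraries, with 1 point per library, the siRNA value being put on the scale of the NC and TGF-b table by its ratio to TGF-b. Pax2, Hmx1, Hoxb9, Tlx3 and Zfp2 have TGF-b above both other libraries, while Wee1, Cenpc1 and Rimoc1 have the siRNA library highest.

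Folds within the members were bounded by the rule, which asks for a density of at least 5 in every library, so they are given as a description. The join sets a further limit. A region called in TGF-b alone enters it by itself, whereas one called in NC alone or with siRNA alone needs an overlapping call in another library. Of the 26926 joined regions, 23383 were called in TGF-b only. Joined regions that were not members had median log2 ratios of 0.73 for TGF-b over NC and -1.22 for siRNA over TGF-b. A high TGF-b library is thus favoured by the choice of regions. The median log2 ratio of TGF-b to NC was 0.20 (rank interval 0.18 to 0.22, quartiles -0.21 and 0.61). At least 2-fold higher in TGF-b were 384 members (8.99%), beside 17.4% of all regions of the table, and at least 2-fold lower were 158 (3.70%), beside 26.7%. For siRNA over TGF-b the median was -0.29 (-0.31 to -0.26), with 82 members at least 2-fold higher (1.92%) beside 15.1% of all regions, and 537 at least 2-fold lower (12.6%) beside 27.8%. The 2 comparisons share the TGF-b library. Without the authors' line the TGF-b to NC median was 0.76, with 1519 members at least 2-fold higher and 39 lower, and centred on all regions it was 0.40, with 657 and 90. Centred in the same way the siRNA to TGF-b median was -0.08, with 174 members at least 2-fold higher and 311 lower. No more is read from these shares, since a region near 0 in a library could not be a member.

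**Figure D4:**
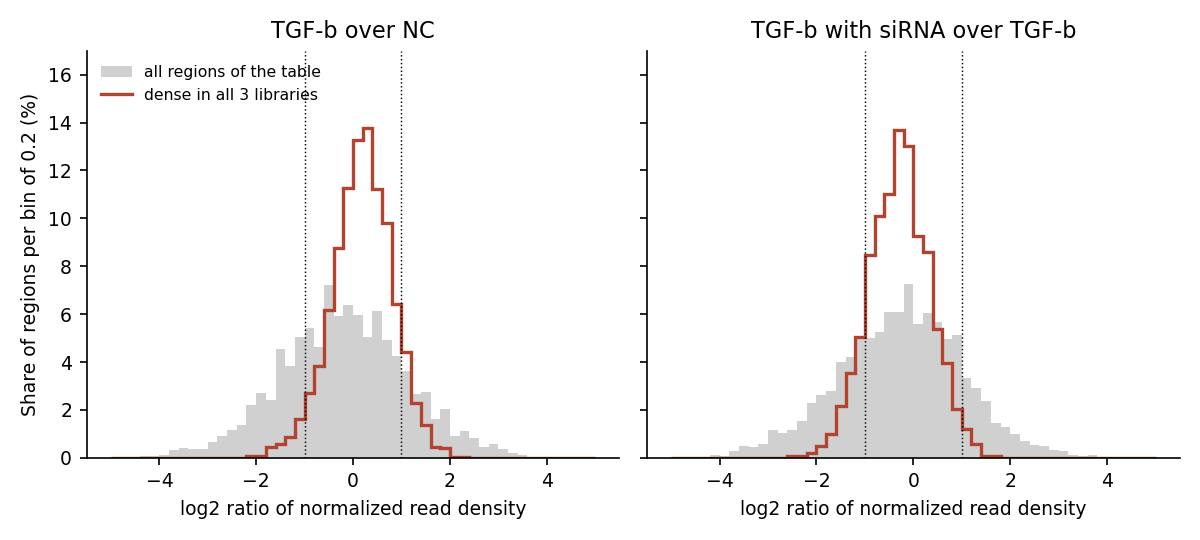
Distribution of the log2 ratio of normalized read density (horizontal axis) in bins of 0.2 (vertical axis, percent of regions per bin) for TGF-b over NC and for TGF-b with siRNA over TGF-b, with the dense regions as a line and all regions of the table in grey. Dotted lines mark 2-fold, past which lie 8.99% and 3.70% of the dense regions on the left plot and 1.92% and 12.6% on the right plot, higher and lower in that order.

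The ratios varied with annotation. Promoter members within 1 kb had a median log2 ratio of 0.37 for TGF-b over NC (0.33 to 0.43) and of 0.02 for siRNA over TGF-b (-0.01 to 0.06). Introns had 0.11 (0.06 to 0.16) and -0.45 (-0.49 to -0.42), and regions with no gene 0.02 (-0.02 to 0.06) and -0.44 (-0.46 to -0.39). For siRNA over TGF-b, 63 of 1284 promoter members (4.91%) and 160 of 971 introns (16.5%) were at least 2-fold lower, beside 27.8% of all regions. Members with the highest lowest density, 20 or more, were at least 2-fold lower in TGF-b than in NC in 36 of 173 cases (20.8%), beside 3.70% of all members and 26.7% of all regions. The lines of the authors centre each table on peaks called in both libraries, so the distance of a median from 0 depends on them, whereas the differences between classes lie within 1 table. The classes also differed in the libraries that called them. Called in TGF-b only were 685 of 971 introns, 837 of 1360 regions with no gene and 270 of 1284 promoters. The siRNA to TGF-b median was -0.58 in members called in TGF-b only and -0.46 in NC and TGF-b. It was 0.02 in TGF-b and siRNA, 0.05 in all 3 and 0.24 in NC and siRNA. The part of the calls in the class differences was not tested. Centring on all regions moves every class by the same amount and puts the siRNA to TGF-b medians at 0.23 at promoters, -0.24 in introns and -0.22 with no gene.

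The largest rises of TGF-b over NC were seen in an intron of Zfp2, a region with no gene and 3 promoters. The Zfp2 region, chr11:50792775-50793037, held 9, 68 and 13 reads in NC, TGF-b and siRNA, with a log2 ratio of 2.25 (1.39 to 3.36). A region with no gene at chr15:102882397-102882564 held 8, 55 and 20 reads (2.09, 1.19 to 3.28). Ube3a, the gene of a ubiquitin ligase, held 8, 52 and 40 reads at its promoter (2.01, 1.10 to 3.20). Eml6 (9, 57 and 28 reads; log2 ratio 1.99) and Kpnb1, the gene of importin beta (9, 56 and 48 reads; log2 ratio 1.97), followed. The log2 ratios of siRNA to TGF-b were -0.36 (-0.96 to 0.22) at the Ube3a promoter and -0.22 (-0.77 to 0.33) at that of Kpnb1, with intervals that include 0, and at Zfp2 the siRNA library was lower, with -2.27 (-3.20 to -1.51).

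The 5 largest falls of TGF-b under NC all had no gene. They were chr17:4676447-4676869 (85 reads in NC, 27 in TGF-b and 21 with siRNA), chr9:24453334-24453413 (94, 30 and 51), a region of the scaffold JH584304.1 (117, 38 and 97), chr5:70158132-70158326 (54, 18 and 11) and chr9:3009440-3010086 (74, 26 and 60). Their log2 ratios ran from -2.14 to -1.99. In 3 of them the siRNA library was above TGF-b, at 0.76, 1.32 and 1.19.

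For siRNA over TGF-b, the 5 largest rises were all at promoters, with 13 to 20 TGF-b reads. Rimoc1, which encodes a subunit of a complex that activates RAB7, held 16, 14 and 47 reads in NC, TGF-b and siRNA (log2 ratio 1.72, 0.94 to 2.64). Cenpc1, the gene of a centromere protein, held 11, 18 and 59 (1.69, 0.99 to 2.49), and Zfp157 held 27, 15 and 48 (1.66, 0.89 to 2.54). Csgalnact2, an enzyme gene of chondroitin sulfate synthesis, held 18, 13 and 38 reads, and Wee1, the gene of a kinase that restrains entry into mitosis, 16, 20 and 54. The largest falls were chr4:134838299-134838515 with no gene (18, 56 and 9 reads, log2 ratio -2.46), the Pax2 promoter (10, 55 and 9 reads, -2.43), an exon of Gm12688 (10, 60 and 10 reads, -2.43), chr5:112018368-112018626 with no gene (25, 68 and 12 reads, -2.37) and the Zfp2 intron. In each of these TGF-b held the most reads, and every siRNA count was 9 to 13. Pax2 encodes a paired box transcription factor of kidney and eye development.

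The density limit itself passed through a dense range of values. The members just inside it were Pax2 and chr4:134838299-134838515, with a siRNA density of 5.09, and a Hmx1 intron with 5.10. Just outside were the promoter of B230317F23Rik, a region with no gene on chromosome 12 and an intron of Scn8a, each with a TGF-b density of 4.95 in the table with NC, which is 11 reads. A single read thus separates the sides, and 1192 members had a lowest density under 6.

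Regions that the tables give to genes of homeobox transcription factors numbered 86 among the joined regions, and 46 of them, in 41 genes, were members (53.5%, beside 15.9% of all joined regions). This family and the C2H2 zinc finger family were picked after their values had been seen. Median reads at homeobox members were 14.5, 38.5 and 19 in NC, TGF-b and siRNA. TGF-b was above NC in density in 43 of 46 and siRNA was under TGF-b in 42 of 46, with median log2 ratios of 0.86 (0.55 to 0.94) and -0.88 (-1.27 to -0.49). Over all 4271 members the same counts were 2713 and 2940, and both ratios share the TGF-b library. At least 2-fold higher in TGF-b were 11 (23.9%), beside 17.4% of all regions, and at least 2-fold lower with siRNA were 19 (41.3%), beside 27.8%. Among all members these shares were 8.99% and 12.6%, and among joined regions that were not members 38.5% and 60.1%. The join favours regions called in TGF-b, so a high TGF-b library is favoured by the choice of regions here too. Without the line TGF-b was above NC in 46 of 46 and siRNA under TGF-b in 42, and centred on all regions these counts were 45 and 39. Over all 4271 members the counts were 3733 and 2928 without the line and 3160 and 2352 when centred. Only 16 of the 46 lay in a promoter within 1 kb or a 5′ UTR.

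By region, Hmx1 held 34 NC, 94 TGF-b and 35 siRNA reads at its promoter, and Hoxb9 23, 73 and 18 in an intron. A region downstream of Tlx3 held 15, 82 and 31 reads. Each of these genes encodes a homeodomain factor that patterns tissues in the embryo, and in each TGF-b was the high library, with log2 ratios over NC of 0.93 (0.39 to 1.52), 1.10 (0.47 to 1.81) and 1.85 (1.14 to 2.71). Hoxd10 (23, 52 and 34 reads) differed less, with a ratio of 0.61 and an interval that includes 0. The T set held a region at 12 of the 46 homeobox members (26.1%, 15.6% to 40.3%), beside 54.7% of all members.

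Genes of C2H2 zinc finger factors gave 98 members out of 264 joined regions (37.1%, beside 15.9% of all joined regions), of which 67 were at a promoter or 5′ UTR, classes in which 55.4% and 51.4% of all joined regions were members. Their median log2 ratios were 0.45 for TGF-b over NC and -0.02 for siRNA over TGF-b, where the latter was 0.19 when centred on all regions. The list of genes named Zfp had 66 genes with a member out of 134 with a joined region (49.3%), beside 28.6% of all 9092 genes with a joined region. The share was 54.9% over genes with a joined promoter or 5′ UTR region, and 50 of the 66 had a member of these classes. Zfp78 held 25, 68 and 85 reads in NC, TGF-b and siRNA, Zfp869 29, 60 and 62, and the Zfp386 promoter 25, 54 and 55. The log2 ratio of TGF-b to NC was 0.89 (0.27 to 1.58) at Zfp78, 0.50 (-0.11 to 1.16) at Zfp869 and 0.55 (-0.09 to 1.26) at Zfp386, so the intervals of the last pair include 0. Of the 73 Zfp members, 9 were at least 2-fold higher and 1 at least 2-fold lower in TGF-b than in NC, beside 17.4% and 26.7% of all regions and 8.99% and 3.70% of members. With siRNA 2 were at least 2-fold higher and 8 lower than TGF-b, beside 15.1% and 27.8% of all regions and 1.92% and 12.6% of members.

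Genes tied to SRF gave few members in number. Of 7 genes of SRF and its cofactors, 5 had a joined region and none had a member. Of 34 SRF target genes in the tables, 7 had a joined region and 4 had a member (57.1% of joined genes, beside 28.6% of all joined genes and 54.9% of genes with a joined promoter or 5′ UTR region), all at a promoter or 5′ UTR. Zyx, which encodes the focal adhesion protein zyxin, held 24 NC, 46 TGF-b and 36 siRNA reads. Vcl, the gene of vinculin, held 13, 29 and 20 reads. Pdlim5, a PDZ and LIM domain gene, held 11, 28 and 31, and Fhl2, of the LIM-only family, 21, 23 and 14. Their log2 ratios of TGF-b to NC were 0.38, 0.55, 0.72 and -0.42 in the same order and all 4 intervals include 0.

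Lists tied to fibrosis and to TGF-b gave few members, too few to tell their shares apart. None of the 5 myofibroblast and matrix genes with a joined region had a member. Of 12 YAP/TAZ target genes with a joined region, 2 had a member (16.7%): the promoter of Amotl2, an angiomotin-family inhibitor of YAP (9, 15 and 16 reads), and an intron of Rbms3 (23, 19 and 10 reads). Of 10 SMAD and TGF-b pathway genes with a joined region, 3 had a promoter member (near the share of 28.6% over all joined genes). Tgfbr1, the type I receptor, held 12, 29 and 16 reads, Smad2, a receptor-regulated SMAD, 15, 21 and 40, and Smurf2, a ubiquitin ligase that targets the receptor complex, 8, 14 and 10.

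Housekeeping lists, matched by symbol, each held few joined genes, and differences between their shares were not tested. Proteasome subunit genes gave 6 of 10 joined genes, with Psmd3 at 16, 27 and 35 reads, Psmb9 at 15, 34 and 28 and Psmc4 at 8, 36 and 31. Heat shock and DNAJ genes gave 11 of 24, 10 of them with a promoter member. Their 11 members all had TGF-b above NC in density (log2 ratios 0.07 to 1.32, also without the line or centred), as did 965 of the 1284 promoter members within 1 kb, or 1192 without the line. Among them were them Hspa2 (22, 34 and 41 reads), Dnajb1 (18, 39 and 31) and Dnajc13 (16, 41 and 35). Genes whose symbols begin with Eif or Eef gave 9 of 22, and this match by symbol takes in genes that encode no translation factor. The densest were Eef2kmt, a methyltransferase gene (25, 39 and 58 reads), Eif2ak3, the gene of the stress kinase PERK (19, 31 and 49), and Eif4enif1, the gene of an eIF4E transport protein, in an intron (114, 105 and 70). The share was 28.6% over all joined genes and 54.9% over genes with a joined region at a promoter or 5′ UTR, where most of these members lie. Respiratory chain genes gave 4 of 19, with Ndufa8 (15, 26 and 29 reads), Atp5mc1 (10, 24 and 24) and Ndufv3 (12, 20 and 17). Splicing factor genes gave 2 of 13, U2af2 (9, 27 and 45) and Hnrnpl (15, 18 and 27), and cytosolic ribosomal protein genes gave 2 of 14, Rps19 (8, 31 and 33) and Rpl37 (9, 17 and 21). Neither of the histone genes with a joined region had a member. Olfactory and vomeronasal receptor genes, which fibroblasts are not known to use, gave 7 of 129 (5.43%), among them Or6b3 (13, 30 and 13), Or1af1 (18, 31 and 13) and Or52l1 (19, 18 and 13).

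Markers of cell types were counted only as genes with a region, since these libraries measure chromatin association and not transcripts. Cardiac fibroblast markers had 1 gene with a joined region and no member, so the labelled cell type could not be checked here. Of 2 joined cardiomyocyte markers 1 had a member, Ryr2 (13, 23 and 13 reads, in an intron). Of 4 joined endothelial markers it was Cdh5 (13, 25 and 17, in an intron), of 4 smooth muscle and pericyte markers Kcnj8 (12, 30 and 15, at its promoter), and of 2 macrophage markers none. Beside 28.6% of all joined genes, these counts are too small to tell cell types apart. The presence of other cells and its part in the results was not tested.

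The T set gave a readout that the rule did not use. A T set region overlapped 2337 of the 4271 members in at least 1 T set table (54.7%, 53.2% to 56.2%) and 3047 of the 22655 other joined regions (13.4%, 13.0% to 13.9%). Promoter members within 1 kb did so in 86.8% of cases (84.8% to 88.5%), beside 55.5% of other joined promoters. Introns did so in 33.7% against 11.9%, and regions with no gene in 38.8% against 9.60%. The higher share in members thus held within each of these classes, for libraries that are single in each set. With a T set density of at least 5 in every T set library there were 1491 members (34.9%), and this share went from 15.9% at a lowest S set density of 5 to 6 to 70.5% at 20 or more.

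**Figure D5:**
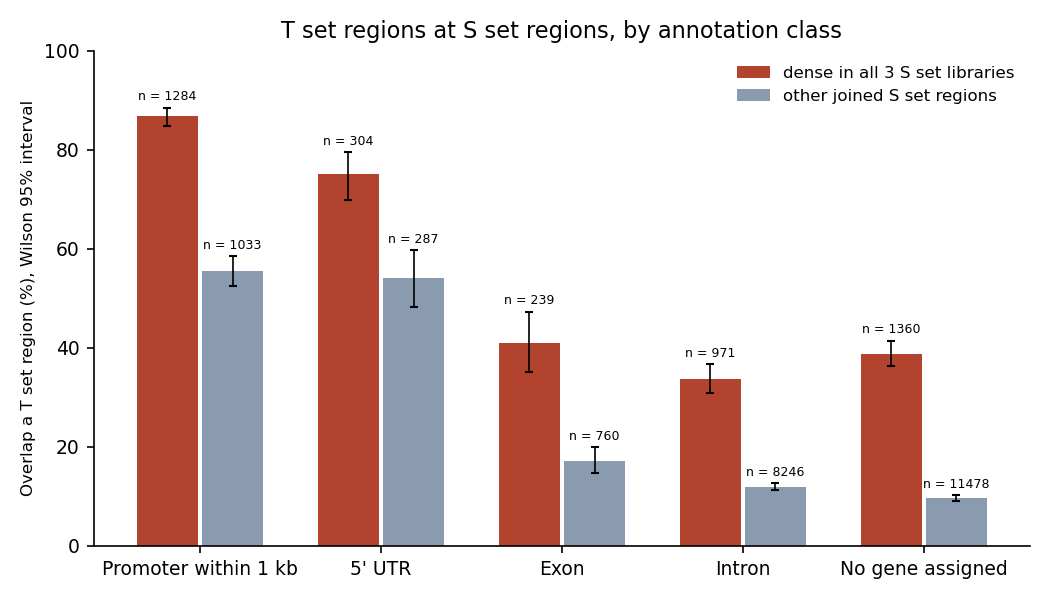
Share of S set regions that overlap a T set region in at least 1 T set table (vertical axis, percent, with Wilson 95% intervals) by annotation class, for regions dense in all 3 S set libraries and for other joined regions, with n above each bar. The dense regions are higher in all 5 classes shown, from 86.8% against 55.5% at promoters within 1 kb to 38.8% against 9.60% with no gene.

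The T set had 10572 regions dense in all 3 of its own libraries, and 1526 of them overlapped an S set member (14.4%), which is 1487 of the S set members (34.8%). Their promoter share within 1 kb was 32.3% (31.4% to 33.2%), and no gene was assigned to 21.8%, beside 31.8% of S set members (30.5% to 33.3%). Among members that had a T set region, the median T set reads were 29 in NC and 38 in TGF-b. The median T set log2 ratio of TGF-b to NC there was 0.35 (0.31 to 0.39), with 464 of 2128 at least 2-fold higher (21.8%), beside 17.3% of all T set regions, and 192 at least 2-fold lower (9.02%), beside 42.1%. For siRNA over TGF-b it was -0.26 (-0.30 to -0.22), with 268 of 2125 at least 2-fold higher (12.6%), beside 49.7% of all T set regions, and 469 at least 2-fold lower (22.1%), beside 16.2%. Over all T set regions the medians were -0.65 and 0.97, and joined S set regions that were not members lay between, with -0.01 (-0.04 to 0.10) and 0.08 (-0.02 to 0.14). Those other joined regions were at least 2-fold higher in TGF-b in 22.0%, about as members were, and at least 2-fold lower in 23.7%, and for siRNA 28.1% were higher and 24.7% lower. Centred on all T set regions the member medians were 1.0 and -1.23, and without the line 0.37 and -0.74.

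The T set ratios differed between promoters and regions with no gene. At promoter members within 1 kb the T set medians were 0.50 (0.45 to 0.55) and -0.42 (-0.48 to -0.37). At members with no gene they were -0.17 (-0.26 to -0.05) and 0.46 (0.34 to 0.59), the opposite sign to promoters. Centred on all T set regions the signs were alike, with 1.15 and -1.39 at promoters and 0.48 and -0.52 with no gene. By name, Wipi1 held 146, 253 and 205 T set reads in NC, TGF-b and siRNA, and Garnl3 155, 267 and 157. AKAP17A held 42, 111 and 85. Gm6410 held 84, 86 and 55, and Dnpep 119, 203 and 270. The promoter of ENSMUSG00000095041 held 40, 71 and 54. TGF-b held the most T set reads at Wipi1, Garnl3, AKAP17A, ENSMUSG00000095041 and Gm6410, and the siRNA library held the most at Dnpep. These reads are not scaled between libraries, and by density the order differed. In T set density siRNA lay above TGF-b at Wipi1 (log2 0.2), AKAP17A (0.11), ENSMUSG00000095041 (0.1) and Dnpep (0.92). The siRNA library lay under TGF-b at Garnl3 (log2 -0.26) and Gm6410 (-0.15). At Gm6410 the T set log2 ratio of TGF-b to NC was -0.04. At the densest region, chr2:98496914-98497658, the T set held 6547, 4988 and 3776 reads, with NC highest, as in the S set. Other regions of high signal with no gene were chr17:13524859-13526513, with 2231, 2223 and 2456 S set reads and 2079, 1546 and 2778 T set reads, and chr13:74676601-74678757, with 1932, 2346 and 2111 S set reads and 1895, 1465 and 2126 T set reads. In both the siRNA library was the highest in the T set.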

How the data were processed

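CUT&Tag libraries of primary mouse cardiac fibroblasts, 3 per set and 6 in all, were analysed from 4 deposited tables, each comparing 2 libraries. Bowtie2, GRCm39 and a peak caller written Masc2 are what the authors' methods name. The submitters' processing notes list BWA 0.7.12 and mm10, but the scaffold names of the tables are those of GRCm39. The values deposited by the authors are a signal, the normalized read density (reads plus 1 per kb of a 2 kb window), rescaled along a line within each pair. Tables were normalized separately, and folds were taken only within a table, from its densities. With that line undone, 99.98% to 99.99% of regions came out as whole numbers of reads (tolerance 0.1), a step tested on simulated data. The tables also hold the authors' own log2 ratios and p-values, which were not used.

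Regions of both S set tables were joined by 1 bp of overlap, mitochondrial regions were left out, and each region of the first table counted once. Members and gene lists were chosen with earlier results of these data known. Named were the members of highest mean log2 density, the 5 largest rises and falls per comparison, up to 3 per gene list, those next to the density limit and those also dense in the T set. Promoter, homeobox and zinc finger examples and the fourth SRF target were added after values were seen. Intervals are Wilson 95% for shares, rank-based 95% for medians and, for a region, the Wilson interval of the later library's share of reads. The depth of whole libraries was not used. Promoter windows were RefSeq sequences of GRCm38.p6, matched by symbol, the first window of each gene, since no genome of the tables' build was used. Alternatives were density minimums of 3 and 10, an overlap of 50%, no line, median centring, 1.5-fold and 4-fold thresholds, fewer than 500 reads, autosomes, the distance to the TSS and, added after seeing the data, 1 member per locus. Python 3.11.15 with pandas 2.3.3, NumPy 2.4.6 and SciPy 1.17.1 was used.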

Additional observations from a re-analysis of the deposited data

Results flagged for a closer look

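Mitochondrial regions lie outside the members, since the rule leaves them out, and they carried signal in every library. In the S set 11 of 11 mitochondrial regions shared by both tables had a density of at least 5 in all 3 libraries, with 44839 to 261723 reads per region and library. TGF-b was above NC in density in 6 of 11 (median log2 ratio 0.08), and siRNA was above TGF-b in 1 of 11 (median -0.49). The cause was not tested.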

How the results depend on the processing

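No paired analysis was possible because each treatment had 1 library. The number of members, 4271, was 11798 at a density minimum of 3 and 779 at 10, 4270 with an overlap of 50% and 4127 without the authors' line. The median log2 ratio of TGF-b to NC, 0.20, was 0.76 without the line, 0.40 when centred on all regions and 0.17 at a minimum of 10. The number at least 2-fold higher, 384, was 1519, 657 and 35 under these settings, and that lower, 158, was 39, 90 and 55. The median of siRNA over TGF-b, -0.29, was -0.35, -0.08 and -0.11. The 82 members at least 2-fold higher became 174 when centred and 9 at a minimum of 10, and the 537 lower became 311 and 56. Thresholds of 1.5-fold and 4-fold gave 1118 and 3 members higher and 442 and 4 lower in TGF-b over NC, and 362 and 0 higher and 1364 and 14 lower in siRNA over TGF-b. The share of promoters up to 2 kb, 31.2%, was 43.3% by distance to the TSS within 1 kb and 43.4% at a minimum of 10. The share overlapping the T set, 54.7%, was 51.1% with an overlap of 50%. The cause of these moves was not tested. The medians over all members kept their sign without the line, when centred and at a minimum of 10, and were not computed at a minimum of 3 or with an overlap of 50%. All these settings keep the same join, which favours regions called in TGF-b, so a kept sign does not test that choice. The signs did differ by call. Members called in TGF-b only had medians of 0.26 for TGF-b over NC and -0.58 for siRNA over TGF-b. Those called in NC and siRNA had -0.36 and 0.24. Leaving out regions with 500 reads or more, sex chromosomes and scaffolds, or all but 1 member per locus moved no count of folds by 1.5 times. Upper quartiles of reads at members were 18, 32 and 27 in NC, TGF-b and siRNA, which limits single regions.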
